A study of Homo sapiens with 23 samples.

Results

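The genes described here are the 56 DNA replication genes of a PRO-seq time course in T47D cells, chosen by name as factors of origin licensing, the replicative helicase, the polymerases, the sliding clamp and its loader, Okazaki fragment processing, nucleotide supply and chromatin assembly at the fork. The choice was made with earlier results of these data known, so shares of these genes set beside those of all genes are descriptions. All 56 were found among the 60605 Ensembl gene identifiers of the count table, and all 56 passed the low-count filter that left 26057 genes for testing. PRO-seq (precision run-on sequencing) counts RNA polymerases caught in the act of transcription, so the values report synthesis of RNA and not the standing mRNA or protein. T47D is a luminal line derived from human breast cancer that grows under estrogen receptor control. A single clone was used in which the gene for the transcription factor TRPS1 carried a degron tag at its own locus, some copies of the gene being knocked out and only tagged protein being made. Every library, the controls included, came from this clone. A mixture of dTAG-V-1 at 50 nM with dTAG-13 at 50 nM, dTAG below, marks the tagged protein for degradation. Exposure to dTAG lasted 0.5, 1, 2, 4 or 24 h, the control cells had vehicle (DMSO, 0.1% v/v) for 24 h, and all were grown in serum with insulin and harvested together within a replicate. There were 4 replicates of each group except 24 h, which had 3 (replicates 2, 3 and 4), giving 23 libraries.

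DNA replication starts in G1, when the origin recognition complex, CDC6 and CDT1 load the MCM helicase onto origins. In S phase, kinases and accessory factors switch the helicase on, primase and the polymerases copy both strands behind it, the PCNA clamp keeps the polymerases on the template, and nucleases and a ligase join the lagging-strand pieces. Many of these genes are transcribed together before S phase under E2F transcription factors, and in breast cancer cells their summed activity is widely read as a sign of proliferation.

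The libraries held 4408544 to 17571616 counts each, with a median of 9768427, and the 56 genes took 12518 to 64285 of them. Mitochondrial transcripts took 1.73% to 6.5% of counts, the highest share being in replicate 1 at 4 h. Pairs of replicates within a group differed by far more than sampling noise, so none was counted as a duplicate, and in each of the 5 groups that had a replicate 1 the pair of largest difference held it. The chi-square per degree of freedom of that pair was 38.5 at 0.5 h and 44.9 at 4 h, and 14.6 to 17.1 in DMSO and at 1 and 2 h, while the 24 h group has no replicate 1. The luminal markers ESR1, GATA3, FOXA1, KRT8, KRT18 and KRT19 were all expressed. Of the markers of other cell types, KRT5, KRT14 and COL1A2 stayed under 1 CPM (TMM-scaled counts relative to library size) in every library, whereas TP63 (18.3 to 32.5 CPM), COL1A1 (9.18 to 14.8) and PTPRC (2.12 to 5.03) were above it. Nascent TRPS1 was at 7997 to 10160 CPM in DMSO and at 9757 to 11980 CPM at 24 h, a log2 fold change of 0.28 ± 0.09 (SE, edgeR adjusted p = 0.288, and 0.000135 with the replicate block described below). The ligands act on the protein, so this value does not check the labels.

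As a set, the replication genes were above their DMSO level at 0.5 and 1 h and below it at 4 and 24 h. Their summed CPM was 3505 ± 34.4 in DMSO (SD, n = 4), 3640 ± 51.7 at 0.5 h (n = 4), 3682 ± 56 at 1 h (n = 4), 3555 ± 46.7 at 2 h (n = 4), 3377 ± 51.3 at 4 h (n = 4) and 3253 ± 32.0 at 24 h (n = 3). The lowest 0.5 h library (3592) and the lowest 1 h library (3624) lay above the highest DMSO library (3549), and the highest 4 h library (3443) lay below the lowest DMSO library (3473). The 24 h libraries spanned 3221 to 3285 and overlapped no other group. The 2 h libraries (3489 to 3594) overlapped DMSO. Without replicate 1, the other separations were the same and the 2 h libraries (3555 to 3594) no longer overlapped DMSO. No test was run on the sum. Since these are bulk libraries, fewer cells in S phase and less transcription per cell cannot be told apart.

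Some cell type markers moved with dTAG in the same libraries. The basal marker TP63 was at 18.3 to 20.8 CPM in DMSO and at 22.1 to 32.5 CPM with dTAG, every dTAG library lying above every DMSO library, with a log2 fold change of 0.29 ± 0.08 (SE, edgeR adjusted p = 0.215, and 0.0383 with the block) at 0.5 h and of 0.49 ± 0.09 (adjusted p = 0.00722) at 24 h. The other basal markers KRT5 and KRT14 were at or near 0, so the summed level of the 3 was 18.7 to 20.9 CPM in DMSO, 23.1 to 26.2 at 0.5 h and 27.0 to 29.6 at 24 h. The 6 luminal markers summed to 4140 to 4430 CPM in DMSO, 3940 to 4080 at 0.5 h and 3930 to 4210 at 24 h. Of these, GATA3 was lower at 0.5 h (937 ± 23.9 CPM against 1090 ± 16.8, SD, n = 4 each, edgeR adjusted p = 0.00112) and at 24 h stood at 1053 ± 29.5 CPM (n = 3, adjusted p = 0.855 against DMSO). KRT19 stood at 331 ± 25.3 CPM in DMSO and 279.5 ± 14.6 CPM at 24 h (edgeR adjusted p = 0.12, and 0.000917 with the block). The fibroblast markers (12.7 to 14.5 CPM in DMSO, 10.6 to 13.4 at 0.5 h and 12.3 to 14.7 at 24 h) and PTPRC (2.62 to 3.43, 2.56 to 4.38 and 2.67 to 3.04) overlapped between these groups. The part of these markers in the shift of the replication genes was not tested.

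**Figure D1:**
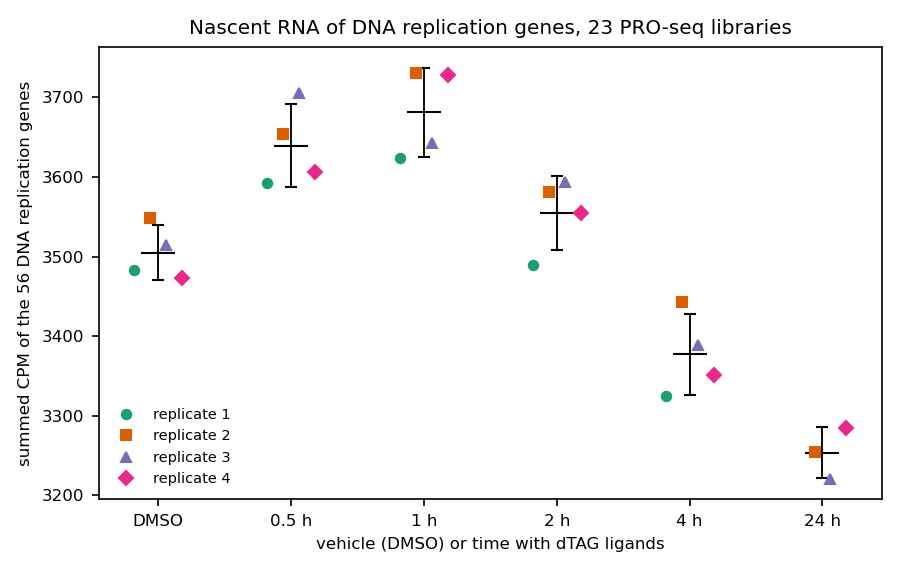
Summed CPM of the 56 DNA replication genes in each of the 23 libraries (vertical axis, which does not start at 0) by vehicle or time with dTAG (horizontal axis, not to scale); symbols mark the replicate number and black bars the mean ± SD of each group. The 24 h libraries sit between 3221 and 3285, below every other library, and the 0.5 h and 1 h libraries sit above every DMSO library.

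The shift was small for each gene, shared by most of them at 0.5, 1 and 4 h and by nearly all at 24 h. At 0.5 h, 47 of the 56 genes had a positive fold change against DMSO, and the median of the 56 on the log2 scale was 0.07, a difference of 4.9%. Within same-numbered libraries the 0.5 h median was 0.04, 0.03, 0.12 and 0.06 in replicates 1 to 4, with 38, 38, 43 and 45 genes higher. At 1 h there were 44 positive genes with a median of 0.065, and at 2 h there were 36 with a median of 0.02. At 4 h, 46 of 56 genes were negative with a median of -0.06, and at 24 h 55 of 56 were negative with a median of -0.11, or -7.3%. The median of all 26057 genes tested stayed between 0.00 and 0.01 in these comparisons. TMM scaling over the same genes places the typical change near 0, so that median is not an independent reference. The fold changes are therefore relative to the other genes and not absolute amounts of RNA. From 0.5 h to 24 h, a comparison that involves no DMSO library, 54 of 56 genes were negative with a median of -0.19, or -12.5%, where the median of all genes tested was -0.01. Within same-numbered libraries that median was -0.18 in replicate 2, -0.25 in replicate 3 and -0.16 in replicate 4. The 5 comparisons with DMSO share the same 4 DMSO libraries and are not independent of each other.

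**Figure D2:**
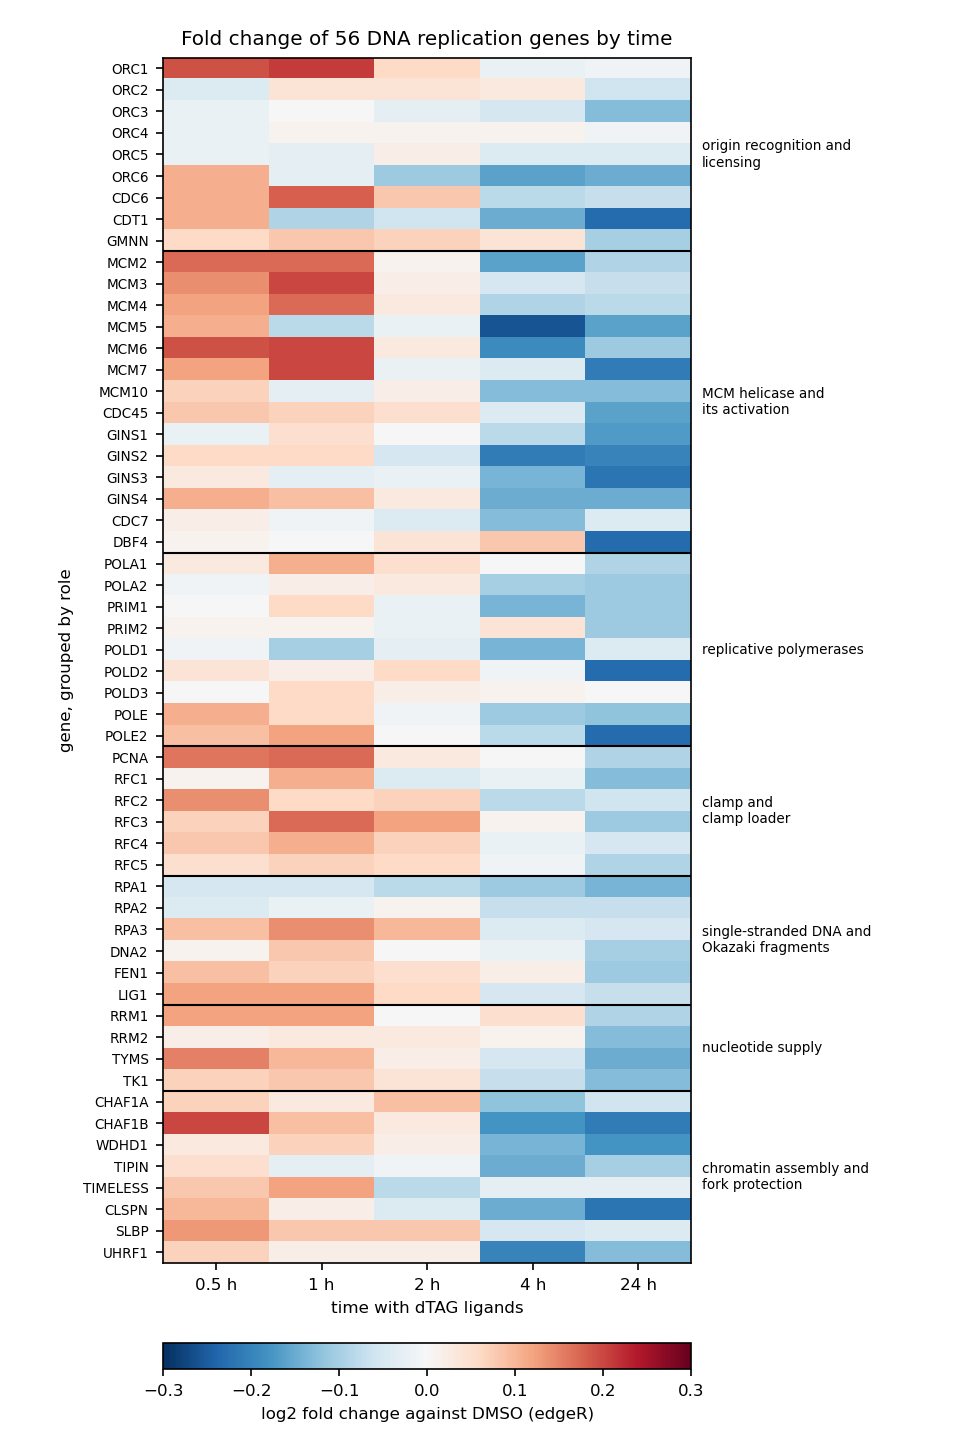
Log2 fold change against DMSO (colour, red above and blue below 0) of each of the 56 DNA replication genes (rows, grouped by role) at each time with dTAG (columns). Most rows run from red at 0.5 and 1 h to blue at 4 and 24 h, with 47 positive genes at 0.5 h and 55 negative genes at 24 h.

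Few of these shifts passed the test gene by gene against DMSO. Calls are genes with an adjusted p-value under 0.1 in edgeR's quasi-likelihood test, adjusted over all 26057 genes. Libraries with the same replicate number were harvested together, and a second fit therefore carried the replicate number as a block. At 0.5 h no replication gene was called higher, where 0.234% of all genes were, 7 of 56 had an unadjusted p under 0.05, where 7.68% of all genes did, and DESeq2 called 0; with the block 1 was called (MCM3), where 1.12% of all genes were. At 1 h edgeR called 0 of them higher against 0.514% of all genes, with 12 of 56 at an unadjusted p under 0.05 (9.42% of all genes) and 1 called by DESeq2 (MCM3). With the block 4 were called at 1 h (MCM3, MCM4, CDC6 and RFC3), against 1.49% of all genes. At 2 h edgeR called 0 against 0.43% of all genes, with 0 at an unadjusted p under 0.05 (7.1% of all genes) and 0 called by DESeq2. RFC3 alone was called at 2 h with the block, against 1.3% of all genes. Leaving out each replicate in turn, the fit with the block called 2, 0, 0 and 0 genes at 0.5 h without replicates 1, 2, 3 and 4, 1 to 3 at 1 h (fewest without replicate 2) and 0 at 2 h each time.

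The later calls were all in the downward direction. At 4 h edgeR called 0 replication genes lower, against 0.307% of all genes, with 11 of 56 at an unadjusted p under 0.05 (7.47% of all genes) and 1 called by DESeq2 (MCM5). With the block MCM5, GINS2, WDHD1 and UHRF1 were called at 4 h, against 0.948% of all genes, and without replicates 1, 2, 3 and 4 that count was 3, 0, 1 and 1. At 24 h POLE2 was called, against 0.299% of all genes called lower, and with the block 9 were called (POLE2, GINS1, WDHD1, CDC45, DBF4, PRIM2, RFC3, RRM2 and CLSPN), against 1.22%. Between 24 h and DMSO, 36 of the 56 were lower in all 3 pairs of same-numbered libraries, where 16.3% of all genes were, and at 0.5 h 16 of the 56 were higher in all 4 pairs, where 10.6% of all genes were. The 24 h calls were not stable: POLE2 was lost when replicate 2, 3 or 4 was left out, and with the block the number called was 9, 1, 0 and 6 without replicates 1, 2, 3 and 4.

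The fall from 0.5 h to 24 h carried the most calls. It sets a time when the set stood above DMSO against the time when it stood lowest. The mean summed CPM was 3640 at 0.5 h, 3505 in DMSO and 3253 at 24 h. The comparison thus takes in the early rise as well as the fall below DMSO. Without the block 11 of the 56 genes were called lower at 24 h than at 0.5 h (MCM3, MCM5, MCM6, MCM10, CDC45, POLE, POLE2, RRM1, CHAF1B, WDHD1 and CLSPN), where 0.791% of all genes were called lower. An unadjusted p under 0.05 was reached by 37 of the 56 and by 10.7% of all genes, and with the block by 46 of the 56 and 15.7% of all genes. With the block 36 of the 56 were called, where 2.88% of all genes were, and none of the 56 was called higher in either fit. Of the 56, 52 were lower at 24 h in all 3 same-numbered pairs (19.3% of all genes were), and in 32 every 24 h library lay below every 0.5 h library (5.47% of all genes). The F-test over all 5 times called 11 of the 56 without the block and 32 with it, where 2.71% and 9.01% of all genes were called. The count of 11 from 0.5 h to 24 h became 13 without replicate 1, 2 without replicate 2, 0 without replicate 3 and 1 without replicate 4, and the count of 36 became 35, 13, 3 and 16. It was 0 when libraries were scaled by total counts only, 1 when only the groups compared entered the fit, and 22 with DESeq2, which kept all 11.

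**Figure D3:**
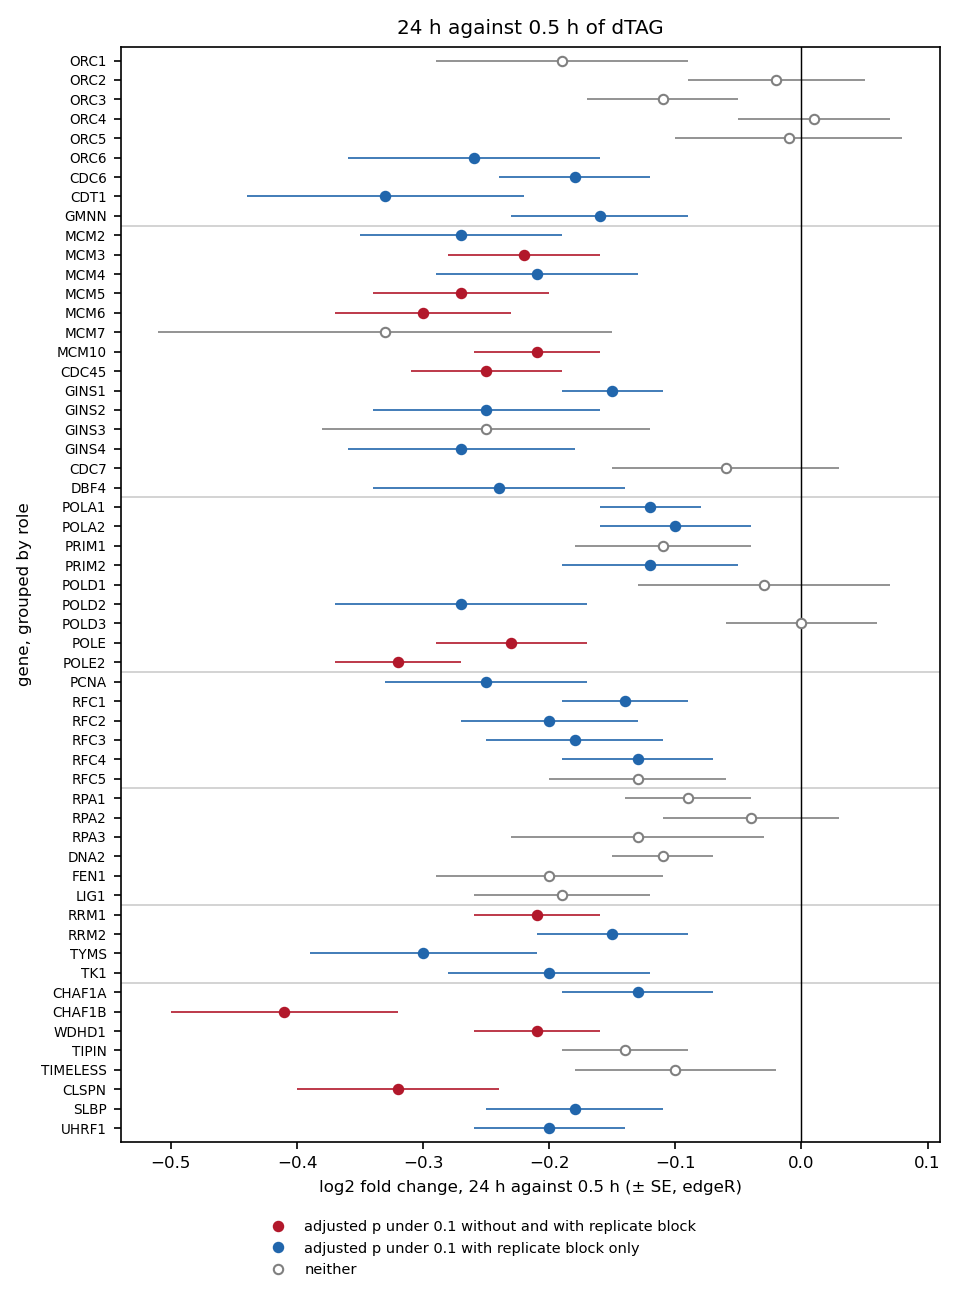
Log2 fold change from 0.5 h to 24 h of dTAG (horizontal axis, edgeR without the replicate block, ± SE) for each of the 56 DNA replication genes (vertical axis, grouped by role). Red points are the 11 genes called with and without the block, blue points the further genes called with the block only, and open grey points the rest; 54 of 56 points lie below 0.

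The promoters of these genes share letters that the choice by name did not use. RefSeq promoters (GRCh38.p14, from 250 bases before to 50 after the annotated start) were matched by symbol for 49 of the 56 genes. The letters TTTCGCGC, TTTGGCGC or TTTCCCGC, forms of the E2F site, were present on either strand in 20 of the 49 (40.8%), against 595 of the 14349 promoters of tested genes (4.15%). CCAAT, the NF-Y box, was present in 27 of 49 (55.1%), against 36.2% of all, and both sets of letters together in 12 of 49 (24.5%), against 1.76%. TTTGAA or TTCGAA, forms of the cell cycle homology region of genes of G2 and mitosis, were present in 3 of 49 (6.1%, against 12.6%). GATA letters (AGATAA or AGATAG, or the same with T as the first letter), the kind of site that TRPS1 binds, were present in 1 of 49 (2.0%, against 17.2%). An E2F match overlapped another of these motifs in 1 promoter, that of MCM7. A match is a description of these letters in this window and not a site shown to be bound. The promoters compared were not matched for base composition, and its part in these shares was not tested. Sequence outside the window was not searched, so the GATA share says nothing of TRPS1 sites further away.

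**Figure D4:**
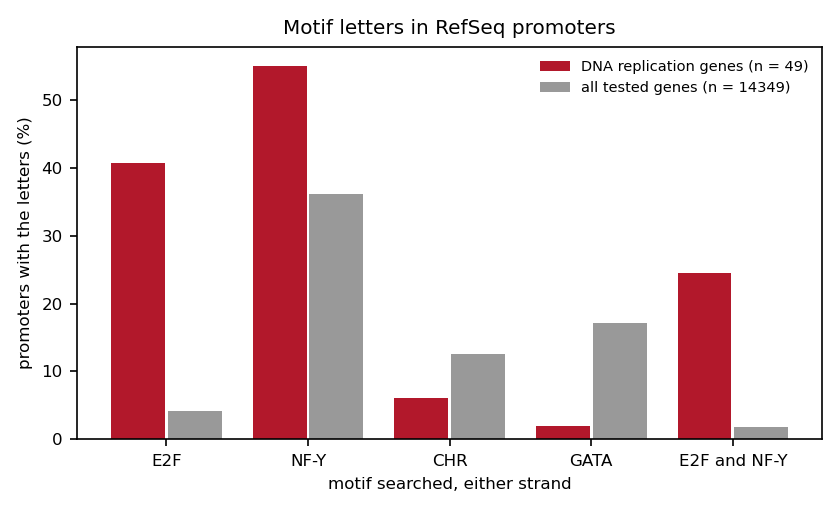
Percentage of RefSeq promoters that hold the letters of each motif on either strand (vertical axis) for 49 DNA replication genes (red bars) and 14349 tested genes (grey bars). The E2F letters stand in 40.8% of the replication promoters and 4.15% of all.

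The promoters shown here are those of some of the genes whose values are given library by library below. Those of GINS1, which held 1 E2F match in the window, and of RRM1 and WDHD1, which held 0, are not printed. In these stretches, from 160 bases before the start to 15 after it, capitals mark E2F or NF-Y letters on either strand. MCM6 (chr2:135876429-135876603, minus strand) held 4 overlapping E2F matches in 2 blocks, and the other genes of this set lie at chr6:52284728-52284902, minus strand (MCM3), chr16:88803629-88803803, plus strand (CDT1), chr14:49688200-49688374, minus strand (POLE2), chr20:5126608-5126782, minus strand (PCNA) and chr19:48170330-48170504, minus strand (LIG1).
MCM3: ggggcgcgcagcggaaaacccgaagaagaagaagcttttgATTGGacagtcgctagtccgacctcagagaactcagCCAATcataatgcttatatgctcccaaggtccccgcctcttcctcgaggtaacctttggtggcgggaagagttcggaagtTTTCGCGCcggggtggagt
MCM6: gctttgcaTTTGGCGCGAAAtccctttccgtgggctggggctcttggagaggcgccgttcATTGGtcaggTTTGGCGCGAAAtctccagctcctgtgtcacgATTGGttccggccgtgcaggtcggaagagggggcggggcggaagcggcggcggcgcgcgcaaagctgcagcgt
CDT1: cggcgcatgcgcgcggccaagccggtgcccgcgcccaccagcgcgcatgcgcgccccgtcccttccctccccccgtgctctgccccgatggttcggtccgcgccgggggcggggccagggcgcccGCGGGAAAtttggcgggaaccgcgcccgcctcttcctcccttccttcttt
POLE2: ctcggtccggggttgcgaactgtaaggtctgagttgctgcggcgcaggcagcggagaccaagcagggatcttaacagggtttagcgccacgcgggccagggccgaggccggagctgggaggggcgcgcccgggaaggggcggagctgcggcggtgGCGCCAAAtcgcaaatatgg
PCNA: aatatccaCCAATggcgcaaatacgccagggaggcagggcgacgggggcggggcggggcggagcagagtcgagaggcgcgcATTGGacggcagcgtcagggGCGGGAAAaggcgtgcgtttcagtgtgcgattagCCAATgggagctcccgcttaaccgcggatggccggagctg
LIG1: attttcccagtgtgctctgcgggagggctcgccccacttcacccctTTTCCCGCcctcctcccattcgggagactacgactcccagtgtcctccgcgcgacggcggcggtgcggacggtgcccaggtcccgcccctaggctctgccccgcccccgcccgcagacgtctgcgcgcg

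Some genes without the E2F letters searched are shown next. RRM1 and WDHD1, also without these letters and not printed, were both called lower from 0.5 h to 24 h. Only exact letters were searched, so near forms, such as gcgggaag in the CHAF1B stretch, were not counted. CHAF1B (chr21:36385232-36385406, plus strand) had the largest log2 fold change by size from 0.5 h to 24 h among the 56 genes, and ORC4 (chr2:148021537-148021711, minus strand) and ORC5 (chr7:104207999-104208173, minus strand) had 2 of the 3 smallest.
CHAF1B: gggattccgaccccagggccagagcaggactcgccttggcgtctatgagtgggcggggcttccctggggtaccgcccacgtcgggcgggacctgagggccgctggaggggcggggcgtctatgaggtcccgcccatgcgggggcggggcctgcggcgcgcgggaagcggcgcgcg
ORC4: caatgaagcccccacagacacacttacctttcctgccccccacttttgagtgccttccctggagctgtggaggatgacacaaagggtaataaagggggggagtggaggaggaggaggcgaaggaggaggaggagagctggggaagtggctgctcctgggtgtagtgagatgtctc
ORC5: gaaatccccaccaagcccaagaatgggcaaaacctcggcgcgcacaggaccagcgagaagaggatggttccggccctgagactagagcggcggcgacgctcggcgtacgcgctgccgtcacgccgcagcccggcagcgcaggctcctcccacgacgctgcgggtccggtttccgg

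Across the 49 genes, the median log2 fold change at 0.5 h was 0.11 for the 20 with E2F letters and 0.05 for the 29 without them. From 0.5 h to 24 h the medians were -0.24 and -0.15, and at 24 h against DMSO they were -0.12 and -0.10. With and without NF-Y letters they were 0.07 and 0.07 at 0.5 h, and -0.19 and -0.20 from 0.5 h to 24 h. These medians are given with no test, and genes with only near forms of the letters count as being without them.

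Among the origin recognition and licensing genes, those called from 0.5 h to 24 h were ORC6, CDC6, CDT1 and GMNN, and there with the replicate block only. CDC6 was also called over the whole time course without the block. The 9 genes of the group had a median log2 fold change of 0.06 at 0.5 h and of -0.16 from 0.5 h to 24 h, where none was called without the block (4 at an unadjusted p under 0.05, and DESeq2 called CDC6 and CDT1) and 4 were called with it. Without the block the log2 fold changes of the 4 were CDC6 (-0.18 ± 0.06 SE), CDT1 (-0.33 ± 0.11), ORC6 (-0.26 ± 0.10) and GMNN (-0.16 ± 0.07), the last of which encodes geminin, the inhibitor of CDT1. ORC1, the subunit whose level cycles in human cells, stood at log2 differences from DMSO of 0.19 (0.5 h) and 0.21 (1 h) and was called in no comparison, with or without the block. ORC2 and ORC3, core subunits of the complex, had log2 fold changes between -0.13 and 0.04 at every time.

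CDT1, which brings the MCM helicase to origins, was counted at 23.3, 27.3, 19.7 and 25.2 CPM in DMSO replicates 1 to 4 and at 24.8, 26.0, 25.02 and 26.5 CPM at 0.5 h. In replicates 2 to 4 at 24 h it stood at 21.2, 19.97 and 19.8 CPM. Each 24 h library lay below each 0.5 h library, while DMSO replicate 3 lay as low as the 24 h libraries. The fall from 0.5 h to 24 h was called with the block (log2 fold change -0.34, edgeR adjusted p = 0.0426) and not without it (-0.33, adjusted p = 0.149), and over 10 alternatives the adjusted p ran from 0.0426 to 0.685.

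ORC4 and ORC5, core subunits of the origin recognition complex, and POLD3 had the largest p-values of the 56 genes from 0.5 h to 24 h. ORC4 was counted at 76.4, 68.7, 85.0 and 75.4 CPM in DMSO, at 78.9, 74.9, 76.0 and 73.0 CPM at 0.5 h and at 74.97, 79.2 and 74.3 CPM at 24 h. ORC5 was counted at 83.5, 74.5, 96.1 and 84.0 CPM in DMSO, at 73.6, 78.2, 91.5 and 89.5 CPM at 0.5 h and at 74.3, 90.2 and 83.2 CPM at 24 h. The groups overlapped throughout for both genes. The log2 fold change from 0.5 h to 24 h was 0.01 ± 0.06 (SE) for ORC4 and -0.01 ± 0.09 for ORC5 (edgeR adjusted p = 1.0 for both).

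The helicase genes made up 5 of the 11 genes called without the block from 0.5 h to 24 h. Of 14 genes, 13 were positive at 0.5 h with a median of 0.10 on the log2 scale, all 14 were negative at 24 h with a median of -0.15, and from 0.5 h to 24 h all 14 were negative with a median of -0.25. In that last comparison those called without the block were MCM3, MCM5, MCM6, MCM10 and CDC45, and 11 were called with it. The hexamer genes MCM2 to MCM7 ran from -0.33 (MCM7) to -0.21 (MCM4), with MCM5 at -0.27 ± 0.07 (SE) and MCM2 at -0.27 ± 0.08. MCM7 varied most between replicates (SE 0.18) and was not called in either fit. MCM10, which helps the helicase to switch on, had -0.21 ± 0.05, and CDC45, which travels with the active helicase, -0.25 ± 0.06. The GINS subunits GINS2, GINS3 and GINS4 had -0.25, -0.25 and -0.27, of which GINS2 and GINS4 were called with the block. CDC7, the kinase that fires origins, had -0.06 ± 0.09, and its activating subunit DBF4 had -0.24 ± 0.10, called with the block only.

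MCM3, a subunit of the helicase ring, was counted at 67.0, 67.1, 63.7 and 61.9 CPM in DMSO and at 70.6, 74.2, 72.5 and 68.8 CPM at 0.5 h. At 1 h it was counted at 73.3, 79.1, 74.0 and 72.0 CPM, and at 24 h at 65.7, 59.1 and 60.2 CPM. Every 0.5 h and 1 h library lay above every DMSO library and above every 24 h library, whereas DMSO and 24 h overlapped. The rise was called with the block at 0.5 h (log2 fold change 0.14 ± 0.04 SE, edgeR adjusted p = 0.0614, against 0.481 without it) and at 1 h (0.20 ± 0.04, adjusted p = 0.00518, against 0.117), with adjusted p from 0.0614 to 1.0 and from 0.00518 to 0.537 over 10 alternatives. The fall from 0.5 h to 24 h was -0.22 ± 0.06 (edgeR adjusted p = 0.0884, and 0.00316 with the block), with adjusted p from 0.00316 to 0.606 over 10 alternatives.

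MCM6, another ring subunit, was counted at 49.4, 46.9, 48.3 and 46.7 CPM in DMSO and at 59.6, 52.5, 53.9 and 52.8 CPM at 0.5 h. At 4 h it had 43.8, 38.2, 41.6 and 44.2 CPM, and at 24 h 41.1, 42.2 and 49.8 CPM. All 0.5 h libraries lay above and all 4 h libraries below the DMSO libraries, while at 24 h replicate 4 lay just above the highest DMSO library and below all 0.5 h libraries. Against DMSO the 0.5 h log2 fold change was 0.19 ± 0.07 (SE, edgeR adjusted p = 0.379) and from 0.5 h to 24 h -0.30 ± 0.07 (adjusted p = 0.0473, and 0.00852 to 0.508 over 10 alternatives). Over the whole time course MCM6 was called, with an edgeR adjusted p of 0.00685, and 0.00198 with the block.

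GINS1, a subunit of the GINS complex that binds the active helicase, was counted at 100.5, 97.0, 96.4 and 98.2 CPM in DMSO and at 93.5, 99.6, 97.7 and 96.5 CPM at 0.5 h. At 1 h it stood at 94.3, 103, 104 and 104 CPM, and by 24 h at 87.3, 81.8 and 92.3 CPM. Its 0.5 h libraries overlapped DMSO (log2 fold change -0.02 ± 0.04 SE), and each 24 h library lay below each DMSO library. At 24 h against DMSO the log2 fold change was -0.17 ± 0.04 (edgeR adjusted p = 0.111, and 0.022 with the block), with adjusted p from 0.022 to 0.944 over 10 alternatives.

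**Figure D5:**
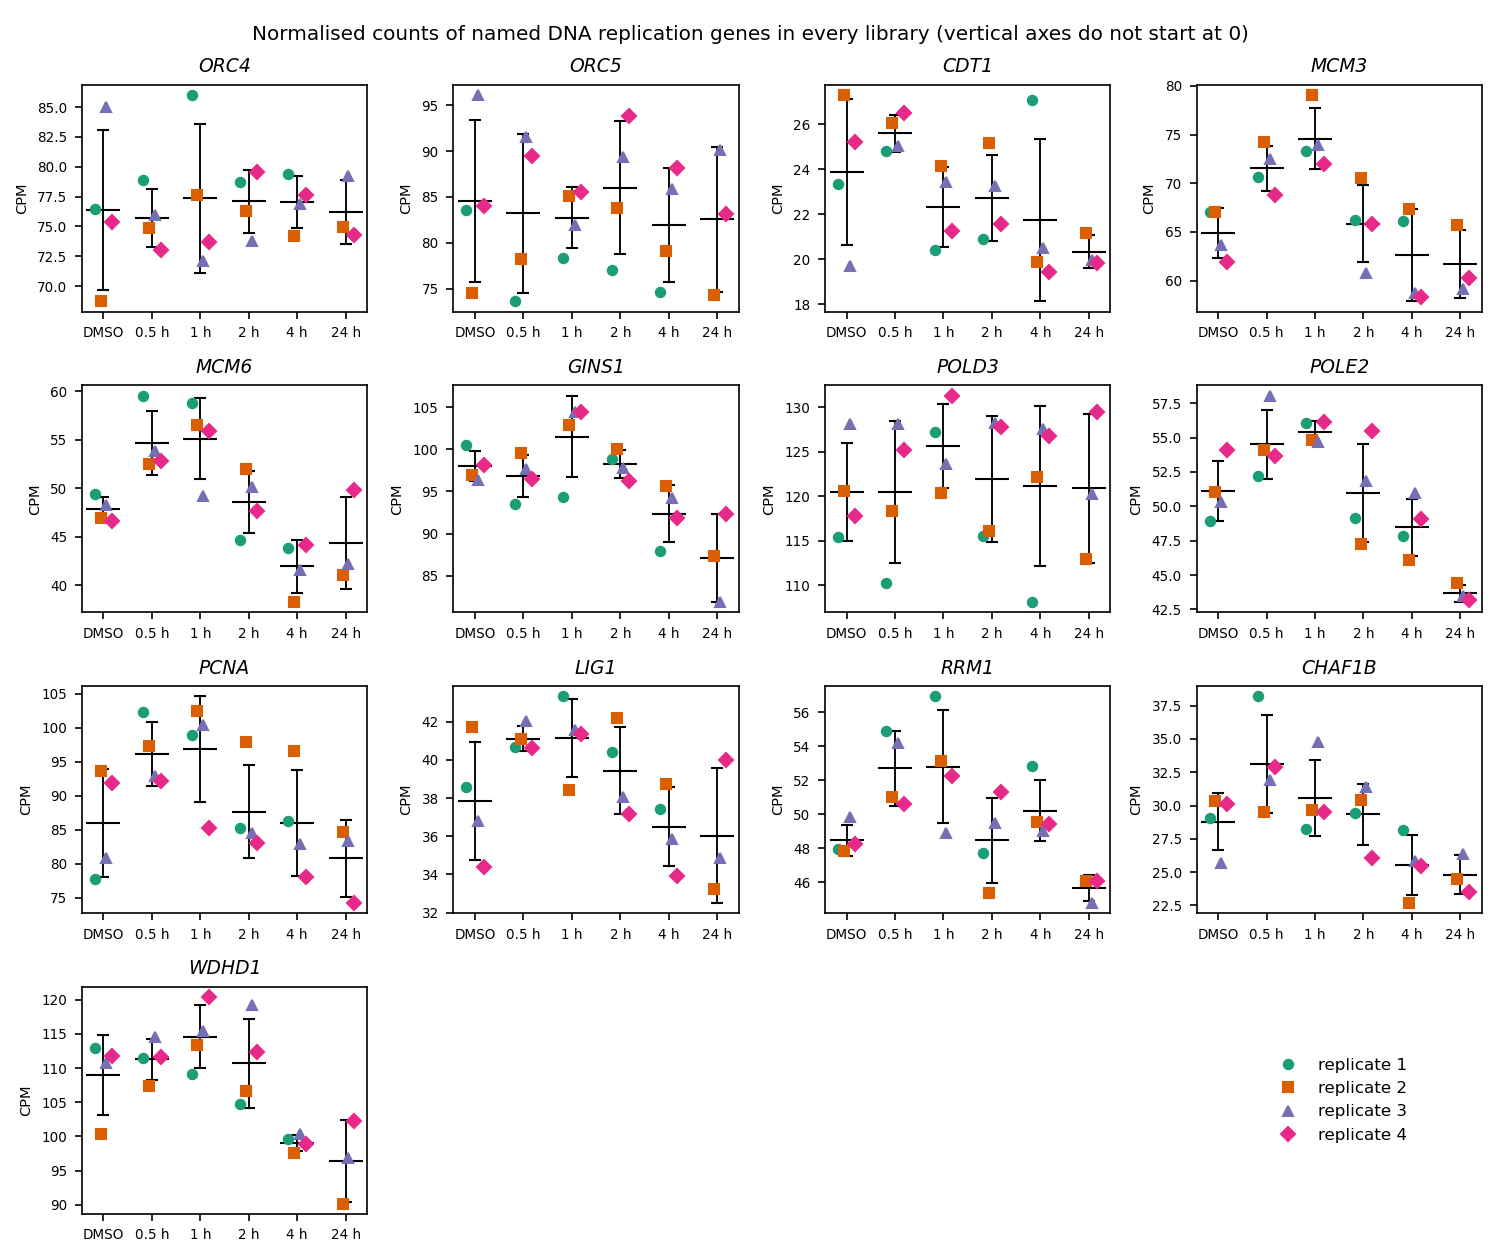
CPM (vertical axes, which do not start at 0) of 13 named DNA replication genes in every library by vehicle or time with dTAG (horizontal axes, not to scale); symbols mark the replicate number and black bars the mean ± SD. POLE2 at 24 h (43.2 to 44.4 CPM) lies below every other library, and ORC4, ORC5 and POLD3 overlap between all groups.

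Among the polymerase genes, both subunits of polymerase epsilon listed were called. Over 9 genes the median log2 fold change was 0.01 at 0.5 h, -0.11 at 24 h and -0.12 from 0.5 h to 24 h, with 2 called in the last comparison (POLE and POLE2) and 6 with the block. The group holds the longest of the 56 genes, PRIM2 (332.0 kb), POLA1 (303.1 kb) and POLD3 (175.3 kb). Longer members changed less at 0.5 h (Spearman's rho -0.48, described below), and the part of length in differences between role groups was not tested. POLE, the catalytic subunit of the leading-strand polymerase epsilon, had -0.23 ± 0.06 (SE). POLA1 and POLA2, subunits of the polymerase that extends primers, and PRIM2, a subunit of primase, had -0.12, -0.10 and -0.12 and were called with the block. PRIM1, the catalytic subunit of primase, had -0.11 ± 0.07, and its same-strand reads may be shared with NACA. Of the polymerase delta genes, POLD2 had -0.27 ± 0.10 and was called with the block, while POLD1, the catalytic subunit, had -0.03 ± 0.10.

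POLE2, the second subunit of polymerase epsilon, was counted at 49.0, 51.0, 50.3 and 54.1 CPM in DMSO and at 52.2, 54.1, 58.1 and 53.7 CPM at 0.5 h. It stood at 47.8, 46.1, 51.0 and 49.1 CPM at 4 h and fell to 44.4, 43.5 and 43.2 CPM at 24 h. The 24 h libraries lay below all other libraries of the study. Its log2 fold change was -0.23 ± 0.05 (SE) at 24 h against DMSO (edgeR adjusted p = 0.0481, and 0.00701 to 0.689 over 10 alternatives, 4 of which called it) and -0.32 ± 0.05 from 0.5 h to 24 h (adjusted p = 0.00291, and 8.25e-05 to 0.231). The fall from 0.5 h to 24 h was called under 8 of 10 alternatives, the exceptions being scaling by total counts and leaving out replicate 3.

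POLD3, an accessory subunit of polymerase delta, was counted at 115, 121, 128 and 118 CPM in DMSO, at 110.2, 118, 128 and 125 CPM at 0.5 h and at 113, 120.2 and 129.5 CPM at 24 h. The 3 groups overlapped fully. Its log2 fold change was 0.00 ± 0.06 (SE) both at 24 h against DMSO and from 0.5 h to 24 h (edgeR adjusted p = 1.0 for both), and its same-strand reads may be shared with LIPT2-AS1.

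All 6 clamp and clamp loader genes were positive at 0.5 and 1 h and negative at 24 h. The median of these genes was 0.07 on the log2 scale at 0.5 h, 0.11 at 1 h, -0.09 at 24 h and -0.16 from 0.5 h to 24 h. In the last comparison none was called without the block (4 had an unadjusted p under 0.05, and DESeq2 called PCNA and RFC2) and 5 were called with it: PCNA, RFC1, RFC2, RFC3 and RFC4. RFC3, a small subunit of the clamp loader, was the only member called at 3 times with the block, with 0.17 ± 0.03 (SE) at 1 h, 0.12 ± 0.03 at 2 h and -0.14 ± 0.04 at 24 h against DMSO (edgeR adjusted p = 0.00963, 0.0708 and 0.0595). Its reads may be shared with ENSG00000276672, a gene on the same strand. RFC5 had -0.13 ± 0.07 from 0.5 h to 24 h and was not called.

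PCNA, the sliding clamp itself, was counted at 77.7, 93.5, 80.8 and 91.9 CPM in DMSO and at 102, 97.4, 92.8 and 92.2 CPM at 0.5 h. At 24 h it stood at 84.7, 83.4 and 74.2 CPM. The 24 h libraries lay below all 0.5 h libraries and inside or just under the range of DMSO. From 0.5 h to 24 h PCNA had a log2 fold change of -0.25 ± 0.08 (SE, edgeR adjusted p = 0.178, and 0.0207 with the block), with adjusted p from 0.0207 to 0.592 over 10 alternatives.

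The genes for single-stranded DNA binding and Okazaki fragments held no call by edgeR in any comparison. Of 6 genes, 4 were positive at 0.5 h with a log2 median of 0.05, and all 6 were negative from 0.5 h to 24 h with a median of -0.12. None was called in that comparison by edgeR with or without the block or by DESeq2, although 3 had an unadjusted p under 0.05 (4 with the block). RPA1 and RPA2, subunits of the protein that coats single-stranded DNA, were negative at 0.5 h already (-0.05 and -0.04), while the small subunit RPA3 was at 0.09. DNA2 and FEN1, nucleases that trim Okazaki flaps, had -0.11 ± 0.04 and -0.20 ± 0.09 (SE) from 0.5 h to 24 h, and FEN1 shares a strand and an overlap with FADS2.

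LIG1, the ligase that joins Okazaki fragments, was counted at 38.6, 41.7, 36.8 and 34.4 CPM in DMSO, at 40.7, 41.1, 42.0 and 40.6 CPM at 0.5 h and at 33.3, 34.8 and 40.0 CPM at 24 h. The 0.5 h libraries all lay above the highest 24 h library, replicate 4, and within the range of DMSO but for replicate 3. From 0.5 h to 24 h LIG1 had a log2 fold change of -0.19 ± 0.07 (SE, edgeR adjusted p = 0.238, and 0.147 to 0.815 over 10 alternatives).

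All 4 nucleotide supply genes were positive at 0.5 h and negative at 24 h. Their median log2 fold change was 0.09 at 0.5 h, -0.13 at 24 h and -0.20 from 0.5 h to 24 h, where RRM1 was called without the block and all 4 with it. TYMS, thymidylate synthase, had -0.30 ± 0.09 (SE), TK1, thymidine kinase, -0.20 ± 0.08 and RRM2, the small subunit of ribonucleotide reductase, -0.15 ± 0.06. RRM2 was also called at 24 h against DMSO with the block (-0.16 ± 0.04, edgeR adjusted p = 0.0419, against 0.686 without it).

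RRM1, the large subunit of ribonucleotide reductase, was counted at 48.0, 47.9, 49.8 and 48.3 CPM in DMSO and at 54.9, 51.0, 54.2 and 50.6 CPM at 0.5 h. The 24 h values were 46.1, 44.8 and 46.1 CPM. All 0.5 h libraries lay above and all 24 h libraries below the DMSO libraries. On the log2 scale RRM1 differed from DMSO by 0.12 ± 0.05 (SE) at 0.5 h (edgeR adjusted p = 0.484), by -0.09 ± 0.05 at 24 h (adjusted p = 0.798), and the value from 0.5 h to 24 h was -0.21 ± 0.05 (adjusted p = 0.0473, and 0.0206 to 0.539 over 10 alternatives).

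Among the genes of chromatin assembly and fork protection, all 8 were positive at 0.5 h and all 8 negative at 4 and 24 h. On the log2 scale the median was 0.07 at 0.5 h, -0.14 at 4 h, -0.12 at 24 h and -0.19 from 0.5 h to 24 h, where CHAF1B, WDHD1 and CLSPN were called without the block and CHAF1A, SLBP and UHRF1 with it as well. CLSPN, which carries the checkpoint signal at stalled forks, had -0.32 ± 0.08 (SE, edgeR adjusted p = 0.071) and TIPIN and TIMELESS, its partners at the fork, had -0.14 ± 0.05 and -0.10 ± 0.08. SLBP, which binds histone mRNA, had -0.18 ± 0.07. UHRF1, which keeps DNA methylation through replication, had -0.20 ± 0.06, and at 4 h against DMSO -0.20 ± 0.05 with the block (edgeR adjusted p = 0.0381, against 0.167 without it). CHAF1A, the large subunit of the histone chaperone CAF-1, had -0.13 ± 0.06.

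CHAF1B, the middle subunit of CAF-1, had the largest fall of the 56 genes. It was counted at 29.0, 30.3, 25.7 and 30.1 CPM in DMSO, at 38.2, 29.5, 31.9 and 32.9 CPM at 0.5 h and at 24.5, 26.4 and 23.5 CPM at 24 h. Replicate 1 at 0.5 h, the library furthest from the others of its group, had the highest value of the study, and the 24 h libraries still lay below the other 0.5 h libraries. Its log2 fold change from 0.5 h to 24 h was -0.41 ± 0.09 (SE, edgeR adjusted p = 0.0295, and 0.00333 to 0.403 over 10 alternatives). Without replicate 1 it was -0.341 and still called. The gene overlaps MORC3 on the same strand, so reads may be shared.

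WDHD1, which ties the helicase to the primase polymerase, was counted at 113, 100.4, 111 and 112 CPM in DMSO and at 112, 107, 115 and 112 CPM at 0.5 h. It stood at 99.6, 97.5, 100.3 and 98.9 CPM at 4 h and at 90.2, 96.9 and 102 CPM at 24 h. The values at 0.5 h did not stand apart from DMSO, and all 4 h libraries lay below all DMSO libraries. The log2 fold change from 0.5 h to 24 h was -0.21 ± 0.05 (SE, edgeR adjusted p = 0.0557, and 0.00358 to 0.54 over 10 alternatives). At 24 h against DMSO it was -0.18 ± 0.05 (edgeR adjusted p = 0.191, and 0.0181 with the block).

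Other genes of the replication pathway, taken from a list of 51, also held calls in the fall from 0.5 h to 24 h. At 0.5 h 31 of the 51 were positive (median log2 fold change 0.02), and from 0.5 h to 24 h 44 of 51 were negative with a median of -0.12. In the latter comparison 12 were called lower and 0 higher without the block, and 17 lower and 1 higher (RRM2B) with it. Of all genes, 0.791% were called lower without the block and 2.88% with it. An unadjusted p under 0.05 was reached without the block by 17 of the 51 and by 10.7% of all genes. The 6 called without the block among 15 regulators of S phase were E2F1, E2F7, RBL1, CCNA2, CDC25A and FBXO5. E2F1, an activator of many replication genes, had -0.36 ± 0.08 (SE, edgeR adjusted p = 0.0208), and CDC25A, the phosphatase that releases CDK activity at the start of S phase, -0.32 ± 0.06 (adjusted p = 0.00525). Of the 15 regulators 12 were negative and 3 positive. Mean CPM at 0.5 h and 24 h was 19.11 and 17.84 for E2F2 and 133.8 and 128.1 for E2F3. It was 16.93 and 17.69 for E2F4 and 57.74 and 61.85 for SKP2. None of these 4 was called. At 0.5 h CTPS1, which makes CTP, was the only one of the 51 called, at 41.7, 40.3, 39.9 and 39.2 CPM in DMSO and 44.6, 45.7, 45.4 and 48.3 CPM at 0.5 h (log2 fold change 0.19 ± 0.04, edgeR adjusted p = 0.0659, and 0.0263 to 0.715 over 10 alternatives). Of all genes, 0.234% were called higher there. NASP, a histone chaperone, was counted at 57.8, 57.9, 60.0 and 56.4 CPM in DMSO and at 65.8, 68.6, 63.9 and 62.7 CPM at 0.5 h. TOP1, topoisomerase I, was counted at 224, 223, 253 and 241 CPM in DMSO and at 205, 219, 221 and 216 CPM at 0.5 h. Neither gene overlapped between the groups. NASP had 0.17 ± 0.05 at 0.5 h (edgeR adjusted p = 0.204, and 0.0538 with the block) and TOP1 -0.13 ± 0.04 (0.37, and 0.0734 with the block).

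At 24 h against DMSO 3 of the 51 were called lower without the block and 11 with it. The shares of all genes called lower were 0.299% and 1.22%. TOP2A, the topoisomerase of G2 and mitosis, was counted at 207, 182, 192 and 188 CPM in DMSO and at 144, 149.5 and 155 CPM at 24 h, with no overlap (log2 fold change -0.36 ± 0.07 SE, edgeR adjusted p = 0.00998, and 1.24e-05 to 0.329 over 10 alternatives, 7 of which called it). CCNA2, cyclin A of S phase and G2, was counted at 29.5, 28.5, 29.7 and 30.9 CPM in DMSO and at 23.7, 23.7 and 25.3 CPM at 24 h (-0.29 ± 0.07, edgeR adjusted p = 0.0407, and 0.0216 to 0.662, with 3 calls). RBL1, the pocket protein p107 that binds E2F, was counted at 159, 155, 153 and 146 CPM in DMSO and at 133, 127 and 132 CPM at 24 h (-0.23 ± 0.05, edgeR adjusted p = 0.0367, and 0.000473 to 0.694, with 4 calls). All 3 had log2 fold changes between -0.05 and 0.03 at 0.5 h, where none passed.

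Per length, the replication genes were transcribed above the typical gene. In DMSO the median of the 56 was 1.38 CPM per kb of annotated span and that of 15720 tested protein-coding genes 0.867. PCNA stood first at 7.35 ± 0.676 CPM per kb (SD, n = 4), ahead of MCM4 (6.05 ± 0.456), RFC4 (5.43 ± 0.153) and MCM7 (4.88 ± 0.839), the last pair lying within an SD of each other. The lowest were GINS3 (0.0946 ± 0.00626), whose annotated span of 111.1 kb is long for the family, PRIM2 (0.353 ± 0.0231) and RPA3 (0.466 ± 0.0726).

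At 0.5 h the larger differences were in the shorter genes. At 0.5 h the median log2 fold change was 0.11 for the 22 replication genes with spans up to 25 kb, 0.09 for the 14 of 25 to 50 kb, 0.01 for the 15 of 50 to 100 kb and 0.03 for the 5 over 100 kb. The medians of all tested protein-coding genes in the same classes lay between -0.01 and 0.01. Across the 56 genes Spearman's rho of span with the 0.5 h log2 fold change was -0.48, against -0.06 across 15720 protein-coding genes, and at 24 h against DMSO it was 0.13 and from 0.5 h to 24 h 0.44. The genes were measured in the same libraries and are not independent of each other, and the classes of fewer than 20 genes are thin. At 24 h against DMSO the medians were -0.09, -0.12, -0.12 and -0.11 in the same classes.

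Many of these genes also start close to the start of a neighbour on the opposite strand. Of the 56, 23 (41.1%) had the start of a protein-coding gene on the opposite strand within 1 kb, against 16.2% of the 15720 tested protein-coding genes. The partners included PRKDC, 7 bp from the start of MCM4, TMEM258, 109 bp from FEN1, CDS2, 253 bp from PCNA, and TACC3, 514 bp from SLBP. Pairs whose spans overlap, such as MCM7 and AP4M1, are included. Some partners were hardly transcribed, with mean counts of 1.9 for PRSS54 (beside GINS3) and 2.9 for ARRDC5 (beside UHRF1).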

How the data were processed

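Nascent RNA was measured by PRO-seq in 23 libraries of a T47D clone. The authors trimmed adapters, removed duplicate molecules by their molecular identifiers and reads from ribosomal DNA, aligned to hg38 and deposited raw counts per Ensembl gene. The submitters' processing notes name cutadapt 1.8.1, Bowtie2 2.4.4 and SAMtools 1.9. The part of each gene that was counted is not given in the sources used here. Genes nested on the opposite strand of a highly transcribed host had a median of 0.0269 of its counts per kb (416 genes), against 0.869 on the same strand (217 genes), so reads were treated as counted by strand. Groups came from the sample labels.

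Counts were fitted with edgeR 4.0.16 in R 4.3.3 (quasi-likelihood F-test, TMM scaling, all 23 libraries, group as the only factor), after filterByExpr (minimum count 10, minimum total 15) left 26057 genes, with Benjamini-Hochberg adjustment over all of them and calls under 0.1. CPM values are counts scaled by TMM library size. Alternatives were other scalings, no filter, DESeq2 1.42.0, the groups compared alone, each replicate left out, members without overlapping genes, and the replicate number as a block. The same number marks cells treated and collected in one round of the same day, so the numbers pair libraries. Deviations from group means correlated at 0.578, 0.0896, 0.434 and 0.141 on average within replicates 1 to 4, and at -0.0825 between numbers. The common dispersion fell from 0.0249 to 0.00489 with the block. In counts simulated for 24 h against DMSO, 22% of genes changed by a log2 fold change of 0.3 were recovered without the block (25768 genes) and 58% with its spread (25650 genes), and 63% and 91% of those changed by 0.5. These counts held no replicate effect and took the dispersion of each fit, so the higher recovery follows from the smaller dispersion entered. Both sizes exceed those of the 56 members at 24 h against DMSO, which reached -0.23 without the block. The replicates came from one clone, so p-values without the block measure the spread between rounds of one culture line. With the block they rest on the spread left after differences shared within a round are taken out.

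The 56 members, the 51 pathway genes and the cell type markers were chosen with earlier results of these data known. Values are given library by library for the member of smallest p from 0.5 h to 24 h in each role, the 3 members of smallest p at 0.5 h and at 24 h against DMSO, the 3 of largest p from 0.5 h to 24 h, and the 3 pathway genes of smallest p at 0.5 h and at 24 h. E2F1 and CDC25A were singled out after their values were seen, and the fit of DESeq2 with the block was added after seeing the data. Annotation was GENCODE 44. Reads that overlapping genes share on one strand cannot be separated; 15 members have such an overlap.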

Additional observations from a re-analysis of the deposited data

Results flagged for a closer look

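In groups of 4 libraries, 7 of the 100 gene and group combinations examined held a library whose gap to the others exceeded Dixon's 95% limit, where chance gives about 1 in 20. Replicate 1 at 4 h, the shallowest library and the one with the highest mitochondrial share, was the high library for CDT1 (27.09 CPM), RRM1 (52.85 CPM) and TOP2A (232.7 CPM). Replicate 4 at 4 h was the low library for CCNA2 (28.12 CPM). Replicate 1 at 1 h was the low library for GINS1 (94.31 CPM), replicate 2 at 2 h the high library for PCNA (97.84 CPM), and replicate 1 at 2 h stood apart for TOP1 (216.9 CPM).

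The difference between the effects at 24 h and at 0.5 h, tested directly as 24 h against 0.5 h by edgeR, was called for 11 of the 56 replication genes. The values of these 11 genes are given above.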

How the results depend on the processing

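No named log2 fold change that was called reversed under any alternative run. The number of replication genes called at 0.5, 1, 2 and 4 h against DMSO (0 each without the block) became 1, 4, 1 and 4 with the replicate block, 2, 4, 1 and 4 with DESeq2 and the block, and 1 at both 1 h and 4 h with DESeq2 alone. At 24 h against DMSO the single call became 2 with median-of-ratios scaling, 0 with total counts, without the low-count filter, with the groups compared alone or without overlapping members, 3 with DESeq2, 9 with the block and 11 with both, and 0 to 1 when a replicate was left out. From 0.5 h to 24 h the 11 calls became 0 with total counts, 2 without the filter, 22 with DESeq2, 36 with the block, 37 with both, 1 with the groups compared alone, 5 without overlapping members, and 0 to 13 when a replicate was left out. Over the time course the 11 calls became 1 with total counts, 6 without the filter, 21 with DESeq2, 32 with the block, 34 with both, 5 without overlapping members, and 0 to 10 when a replicate was left out. The median log2 fold change of the members was 0.039 at 1 h, -0.094 at 4 h and -0.078 at 24 h with total counts, and -0.074 at 4 h and -0.089 at 24 h without overlapping members. With each replicate left out in turn, the median of the members lay between -0.074 and -0.06 at 4 h and between -0.129 and -0.097 at 24 h. Pathway genes called with the block were 3 at 0.5 h (1 without it), 2 at 4 h (0), 11 at 24 h (3) and 16 over the time course (9). The groups compared alone cannot differ from the fit of all groups in the time course and were not run there. The causes of these moves were not tested. Without the overlapping members there are fewer genes to count. The low depth of replicate 1 at 4 h limits its values most.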
